A study of Mus musculus with 4 samples.

Results

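The 43 genes described here make up a Wnt signalling module of the mouse lung: 12 ligands, 10 Frizzled receptors, 2 co-receptors, 3 R-spondins, 3 R-spondin receptors, 5 secreted modulators, 4 feedback genes and 4 nuclear effectors. They were chosen by gene symbol from a table of 57010 genes, with earlier results of these data known. Each symbol was found on a single identifier. Levels came from single-cell RNA sequencing (SPLiT-seq, in which fixed cells receive their barcodes over several rounds of pooling and splitting) of C57Bl6/J lungs at 2 months (8 weeks). A pool of 6 mice carried Shh.Cre+/Flox-p73 (Cre_Pos), and a pool of 6 littermates carried Shh.Cre-/Flox-p73 (Cre_Neg). All Cre_Neg mice were homozygous for an allele of p73 with exons 7 to 9 floxed, so the floxed allele was shared and Cre was the difference the labels name. Shh.Cre places the recombinase under Shh, a gene of the developing lung epithelium, so it is aimed at epithelial lineages.

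Before barcoding, the suspensions were depleted of CD45+ cells, enriched for Epcam+ cells and sorted for live cells, so the share of each cell type follows these steps as well as the tissue. Both pools were barcoded together and divided into 4 sublibraries, which are technical aliquots of the same 2 pools. With 1 pool per genotype there was no replicate of genotype, so no test between pools could be made. Values are given as CPM, the UMIs of a gene with the UMIs of its class scaled to 1000000, with exact 95% Poisson intervals, and ratios with exact conditional binomial intervals. These cover counting error only.

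Wnt proteins are lipid-modified ligands that bind Frizzled receptors together with the co-receptors Lrp5 and Lrp6, which stabilises beta-catenin and turns on TCF/LEF target genes. R-spondins bind Lgr receptors and remove the ubiquitin ligases Znrf3 and Rnf43 from the membrane, which leaves more Frizzled at the surface. In the adult lung the pathway is best known for maintaining alveolar type 2 (AT2) cells through signals from neighbouring fibroblasts.

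The design names 20000 cells. Of 647296 barcodes, 16579 had at least 500 genes, and 16356 were kept as cells after filters on mitochondrial UMIs and doublets, 7696 from Cre_Neg with a median of 8713.5 UMIs and 8660 from Cre_Pos with a median of 8219 UMIs. Among barcodes with at least 500 genes, 285 barcode names recurred in more than 1 sublibrary. The cells fell into 45 clusters, computed without the 43 genes, and into 25 classes named "-like" from marker genes. A total of 3 classes stayed without a name: cluster 6 (416 cells led by Scgb1a1, Cyp2f2, Cbr2 and Sftpa1), cluster 25 (281 cells led by Vwf and Sulf1, with 10 of 10 artery markers) and cluster 29 (304 cells led by Igha and Igkc together with endothelial genes, with a median of 2169 UMIs). Deuterosomal-like cells, at a median of 1087.5 UMIs, had the lowest median of the named classes. Trp73 in ciliated-like cells had 334 (Cre_Neg) and 312 CPM (Cre_Pos). UMIs were not assigned to exons, so this is no check of the deletion. The sex make-up also differed between the pools within a class, and between the classes within Cre_Pos. Of cells with a sex call, those with Y-linked UMIs and no Xist (Y-only) were 16.8% (Cre_Neg) and 95.3% (Cre_Pos) in the ciliated-like class. They were 17.3% and 73.7% in the secretory-like, 20.7% and 12.1% in the AT2-like and 16.9% and 2.77% in the general capillary-like class. Cells were not assigned to mice, so how many of the 6 mice a class drew on is not known.

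**Figure D1:**
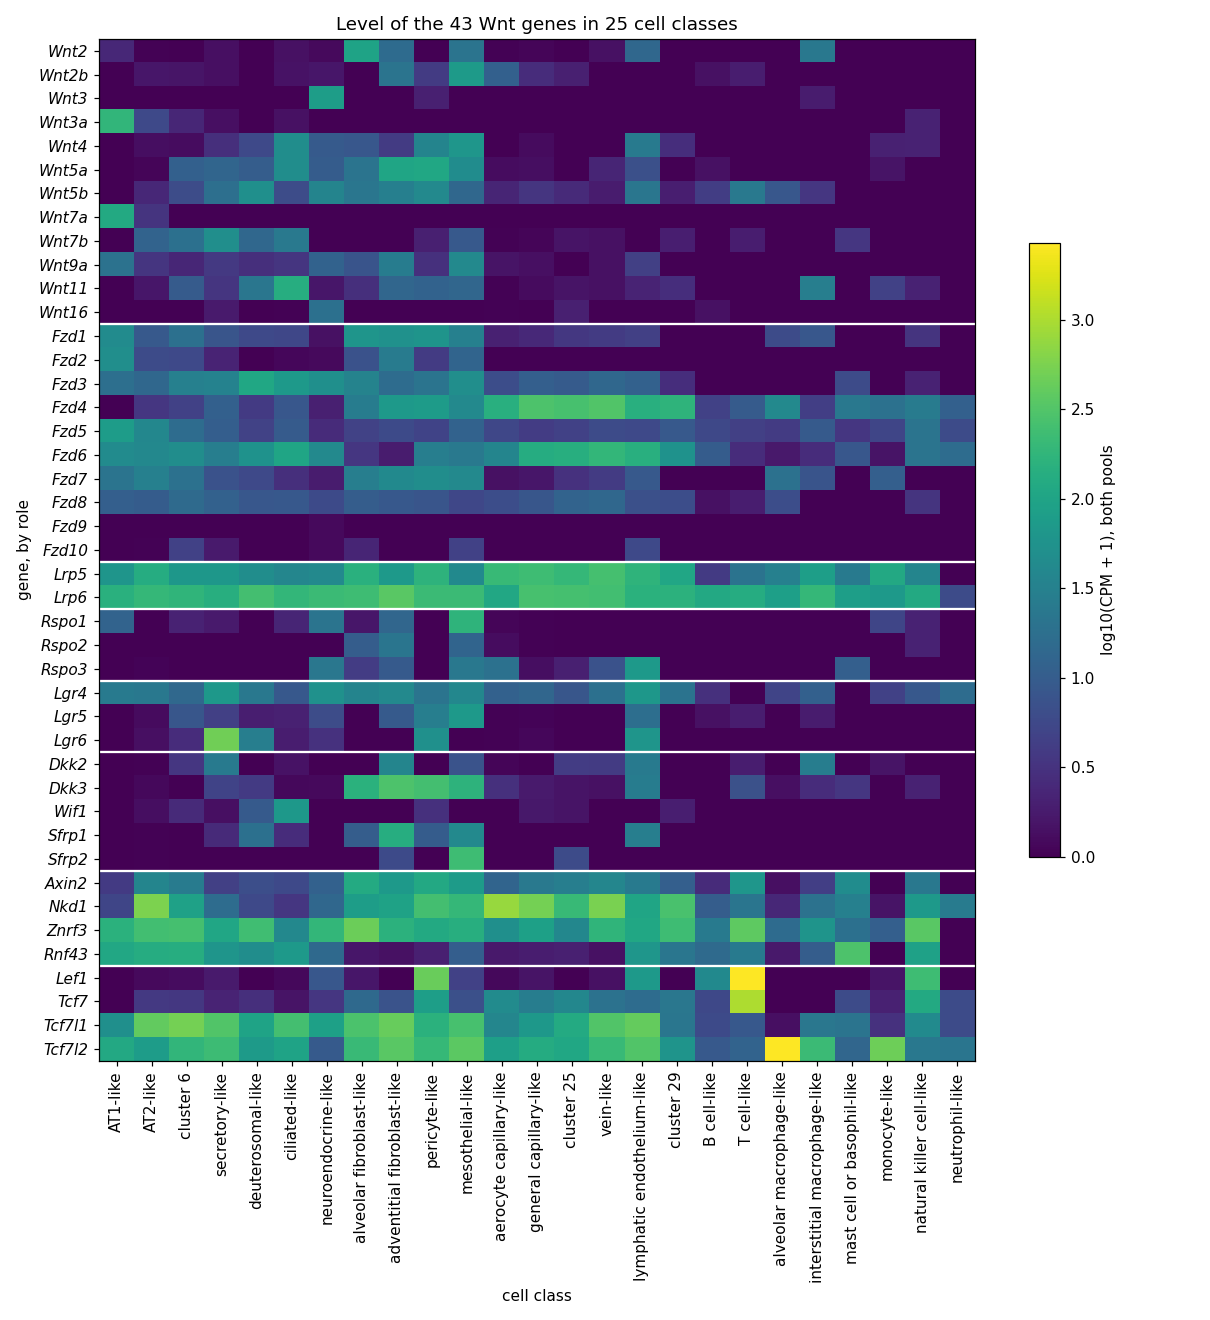
Level of each of the 43 genes (rows, grouped by role) in the 25 cell classes (columns), both pools together, as log10(CPM + 1). Rows are to be read along the classes and not against each other, since counts were not scaled by gene length; Wnt3, Wnt3a, Wnt7a and Wnt16 are bright in a single column, while Lrp6 has UMIs in all 25 columns.

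The module was unevenly spread over the lung. A gene was called concentrated where at least 50% of its summed class levels lay in 1 class, and 41 of the 43 genes had the 50 UMIs needed. Of these, 14 (34.1%) were concentrated, beside 13.8% of all 18788 genes with as many UMIs and 6 of 59 genes (10.2%) of a wider Wnt pathway list. Without the minimum of 50 UMIs, 15 of the 43 genes were concentrated, beside 38.5% of all genes. Both lists were chosen with earlier results of these data known, so these shares describe the lists and are no test. By role, 7 of 12 ligands, 3 of 5 secreted modulators, 2 of 4 nuclear effectors, 1 of 3 R-spondins and 1 of 3 R-spondin receptors were concentrated. No Frizzled receptor, co-receptor or feedback gene was (0 of 8, 0 of 2 and 0 of 4). Fzd9, with 1 UMI in all cells, and Fzd10, with 42, were too low to be placed. A count of 0 allowed up to 0.0636 CPM in the AT2-like class and up to 15.3 CPM in the neutrophil-like class, so absence was far better bounded in the large classes.

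Among ligands, Wnt3a and Wnt7a had their highest levels in alveolar type 1 (AT1)-like cells, the thin cells of the gas-exchange surface. Wnt3a stood at 178 CPM (148 to 212; 125 UMIs) in the 52 AT1-like cells and at 4.66 CPM (4.07 to 5.32) in AT2-like cells, a 38.2-fold difference. The 52 cells formed a class of their own also when the Wnt genes entered the clustering, but at the coarser resolution 1 with those genes they fell into the AT2-like class, and AT2-like was then the highest class of Wnt3a, Wnt7a and Fzd5. In Cre_Neg AT1-like cells its levels in the 4 sublibraries were 199, 125, 166 and 172 CPM, and in Cre_Pos they were 196, 216, 225 and 111 CPM. The pools overlapped, and every sublibrary of AT1-like cells lay above those of AT2-like cells, which ran from 3.84 to 5.87 CPM. Wnt7a stood at 121 CPM (96.8 to 150) in AT1-like and at 2.25 CPM (1.84 to 2.72) in AT2-like cells, with 1 UMI in all other classes. Its AT1-like sublibrary levels were 49.7, 62.7, 119 and 73.7 CPM in Cre_Neg and 163, 173, 75.1 and 173 CPM in Cre_Pos, and the pools overlapped. AT1-like cells with a UMI numbered 41 of 52 for Wnt3a and 35 of 52 for Wnt7a. The far larger AT2-like class held 220 of the 365 Wnt3a UMIs, in 151 of 3552 cells. It also held 106 of the 192 Wnt7a UMIs, in 65 cells. The AT1-like class had 22 and 30 cells in the pools, under the 100 per pool set for a ratio.

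Wnt3 and Wnt16 were concentrated in neuroendocrine-like cells, the rare hormone-secreting sensory cells of the airway. Wnt3 had 393 of its 396 UMIs there, in 171 of 312 cells, at 80.8 CPM (73.1 to 89.2). Its sublibrary levels were 83.1, 73.3, 91.0 and 68.0 CPM in Cre_Neg and 78.8, 88.9, 74.3 and 86.3 CPM in Cre_Pos. The sets overlapped. AT2-like, AT1-like and ciliated-like cells had 0 Wnt3 UMIs. Wnt16 had 84 of 92 UMIs in the same class, at 17.3 CPM (13.8 to 21.4). The same cells held the second-highest level of the R-spondin gene Rspo1 (20.0 CPM).

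The promoters of Wnt3a, Wnt7a, Wnt3 and Wnt11, a ciliated-like ligand described next, are shown as 4 of the 7 ligands concentrated in a single class. The RefSeq table (GRCm38.p6) held windows for 29 of the 43 genes, 38 windows in all, and the 250 bases before the start are printed 5′ to 3′ on the gene's strand. The search was for the TCF/LEF core CTTTGA on both strands (TCAAAG on the other) and capitals mark a match. It was found in 4 of 38 windows (10.5%), beside 13.8% of all 32851 windows. Wnt2, Wnt2b and Wnt16, also concentrated, had windows with 0 matches that are not printed. Guanine and cytosine made up 87.6% of the Wnt3a window, 77.6% of the Wnt7a window, 68% of the Wnt3 window and 70.8% of the first Wnt11 window. The median was 65.8% over the 38 windows of the module and 52.4% over all windows. Wnt11 has another window (chr7:98838595-98838844), not printed, with 0 matches and 56.8% guanine and cytosine.
Wnt3a (chr11:59290752-59291001, minus strand): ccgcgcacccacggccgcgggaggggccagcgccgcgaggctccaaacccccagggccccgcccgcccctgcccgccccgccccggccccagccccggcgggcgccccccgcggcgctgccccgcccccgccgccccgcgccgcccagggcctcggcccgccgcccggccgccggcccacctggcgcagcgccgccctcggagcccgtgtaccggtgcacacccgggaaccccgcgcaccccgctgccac
Wnt7a (chr6:91411354-91411603, minus strand): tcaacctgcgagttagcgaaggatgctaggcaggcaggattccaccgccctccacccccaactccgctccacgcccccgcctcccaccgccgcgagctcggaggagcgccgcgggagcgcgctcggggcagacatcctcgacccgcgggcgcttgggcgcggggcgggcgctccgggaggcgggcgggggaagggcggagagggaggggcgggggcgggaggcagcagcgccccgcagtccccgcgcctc
Wnt3 (chr11:103773925-103774174, plus strand): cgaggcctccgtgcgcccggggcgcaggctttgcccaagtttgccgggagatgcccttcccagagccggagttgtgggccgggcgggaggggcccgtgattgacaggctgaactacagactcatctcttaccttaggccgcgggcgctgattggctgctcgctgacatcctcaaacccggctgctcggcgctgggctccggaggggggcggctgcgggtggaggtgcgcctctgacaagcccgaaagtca
Wnt11 (chr7:98834862-98835111, plus strand): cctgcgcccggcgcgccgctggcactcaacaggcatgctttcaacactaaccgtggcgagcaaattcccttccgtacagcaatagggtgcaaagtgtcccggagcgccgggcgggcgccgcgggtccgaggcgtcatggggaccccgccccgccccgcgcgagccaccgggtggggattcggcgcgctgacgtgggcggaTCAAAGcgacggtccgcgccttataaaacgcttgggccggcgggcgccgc

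Ciliated-like cells carried Wnt11, a ligand known mainly for beta-catenin-independent signalling, and most of the Wnt antagonist Wif1. Wnt11 had 3028 of its 3268 UMIs in these cells, at 137 CPM (132 to 142). Its sublibrary levels were 134, 133, 146 and 128 CPM in Cre_Neg and 135, 164, 141 and 166 CPM in Cre_Pos. The ranges overlapped, and the ratio was 0.13 on the log2 scale (-0.03 to 0.30). The share of ciliated-like cells holding at least 1 Wnt11 UMI was 73.4% for Cre_Neg (median depth 15539 UMIs) and 74.6% for Cre_Pos (16789 UMIs). In AT2-like cells it was 0.241% (11460 UMIs) and 0.542% (14206 UMIs). With each cell of at least 2000 UMIs thinned to 2000, and the others left out, the ciliated-like shares were 22.5% and 23.3%. The AT2-like shares were then 0.149% and 0.207%. In interstitial macrophage-like cells Wnt11 read 27.9 CPM from 33 UMIs in 10 cells, of which 12 came from 1 cell.

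The other ligands were highest in mesenchymal, mesothelial or airway classes. Wnt2, a growth signal from lung mesenchyme, was highest in alveolar fibroblast-like cells at 95.8 CPM (81.3 to 112; 65 of 136 cells with a UMI). Its sublibrary levels there were 56.5, 122, 48.9 and 144 CPM in Cre_Neg and 118, 85.5, 89.2 and 91.5 CPM in Cre_Pos, with the Cre_Neg values on both sides of the Cre_Pos ones. The next value for Wnt2, 22.8 CPM in interstitial macrophage-like cells, rested on 27 UMIs in 3 cells. Wnt2b was highest in mesothelial-like cells, the lining of the pleura, at 72.8 CPM (59.2 to 88.6), followed by adventitial fibroblast-like cells at 19.9 CPM, and aerocyte capillary-like cells held 177 of its 448 UMIs. Wnt9a was also highest in mesothelial-like cells at 40.0 CPM (30.2 to 52.1), with adventitial fibroblast-like cells at 26.9 CPM (20.8 to 34.3).

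Wnt5a, the main beta-catenin-independent ligand, stood at 110 CPM (90.9 to 133) in pericyte-like and 103 CPM (90.4 to 116) in adventitial fibroblast-like cells, 2 neighbours whose intervals overlapped. Ciliated-like cells followed at 46.6 CPM (43.8 to 49.5). The pericyte-like class held 20 Cre_Neg and 82 Cre_Pos cells. In it 8 of 10 pericyte markers passed, but so did 7 of 9 smooth muscle or myofibroblast and 8 of 9 blood endothelium markers. Wnt4 was highest in mesothelial-like cells at 62.6 CPM (50.1 to 77.3) and stood at 47.0 CPM in ciliated-like cells, which held 1042 of its 1289 UMIs. Of its 86 mesothelial-like UMIs, 20 came from 1 cell. In Cre_Pos, and among Xist-only cells, ciliated-like was the highest class of Wnt4. Wnt7b was highest in secretory-like cells at 49.0 CPM (40.8 to 58.3), then in ciliated-like cells at 23.3 CPM (21.3 to 25.4). For Wnt5b no class stood alone, as deuterosomal-like, pericyte-like and neuroendocrine-like cells had 50.4, 40.4 and 33.9 CPM with overlapping intervals.

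**Figure D2:**
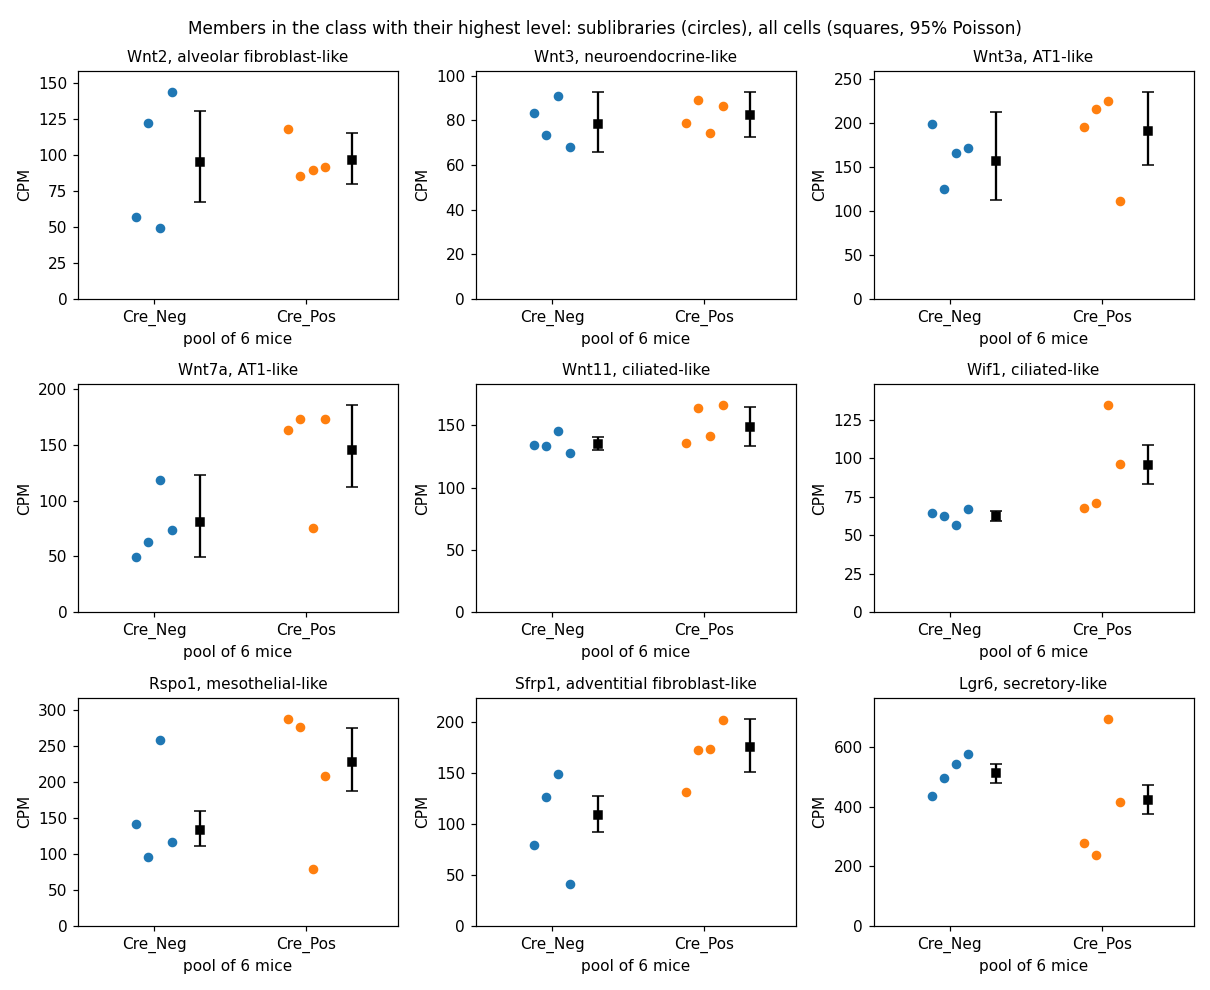
The plot shows 9 members in the class with their highest level, where circles are the CPM of 1 sublibrary in the Cre_Neg and Cre_Pos pools, squares the CPM of all cells of the pool with its 95% Poisson interval. The pools overlap for 8 of the 9, as for Wnt3 (68.0 to 91.0 CPM in Cre_Neg, 74.3 to 88.9 CPM in Cre_Pos), and do not for Wif1 (56.8 to 67.1 and 67.7 to 135 CPM).

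Of the Frizzled receptors, Fzd4 and Fzd6 were highest in vessels and Fzd5 and Fzd2 in AT1-like cells. Fzd4, the receptor that responds to norrin in vessels, stood at 316 CPM (294 to 340) in vein-like cells and 293 CPM (288 to 298) in general capillary-like cells, with cluster 25 at 273 CPM (250 to 297). General capillary-like cells held 11962 of its 16980 UMIs. AT2-like cells read 2.18 (Cre_Neg) and 2.91 CPM (Cre_Pos). Fzd6 was highest in vein-like cells at 188 CPM (171 to 206), ahead of lymphatic endothelium-like cells at 145 CPM (120 to 173). Fzd5 was highest in AT1-like cells at 77.0 CPM (57.8 to 100) and then in AT2-like cells at 37.3 CPM (35.6 to 39.1), which held 1761 of its 2481 UMIs. Fzd2 also stood highest in AT1-like cells, at 48.5 CPM (33.6 to 67.7) from 34 UMIs, but in a fibroblast class at resolution 1.

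Fzd3, a receptor of planar cell polarity, was highest in the multiciliated lineage: 110 CPM (91.2 to 132) in deuterosomal-like and 69.8 CPM (66.4 to 73.4) in ciliated-like cells. Fzd1 did not separate alveolar fibroblast-like (60.4 CPM), pericyte-like (59.2 CPM) and adventitial fibroblast-like cells (53.9 CPM). Fzd7 likewise did not separate pericyte-like, adventitial fibroblast-like and mesothelial-like cells (46.4, 41.8 and 40.8 CPM), and AT2-like cells held 1417 of its 1997 UMIs. Fzd8 was low everywhere, with its highest level of 14.5 CPM in cluster 6 and 13.1 CPM in vein-like cells. The co-receptors were spread over many classes. Lrp5 ran highest in vein-like cells (258 CPM, 238 to 279) and Lrp6 in adventitial fibroblast-like cells (357 CPM, 333 to 381), and these classes held 11% and 8.22% of the summed class levels of each gene.

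Of the R-spondins and their receptors, Rspo1 and Lgr5 shared mesothelial-like cells as their highest class. Rspo1 was concentrated in mesothelial-like cells at 167 CPM (147 to 191), with 59 of 88 cells holding a UMI. Its sublibrary levels were 141, 95.8, 258 and 116 CPM in Cre_Neg and 288, 276, 78.4 and 209 CPM in Cre_Pos, and the ranges overlapped. Rspo2 had only 89 UMIs, 50 of them in 12 adventitial fibroblast-like cells. Rspo3 was highest in lymphatic endothelium-like cells at 70.1 CPM (53.5 to 90.2), where 23 of its 60 UMIs came from 1 cell. Aerocyte capillary-like cells, the endothelium facing the alveolar surface, held 313 of its 574 UMIs at 18.1 CPM (16.2 to 20.3). Within that class cluster 21 had 13.1 (Cre_Neg) and 30.1 CPM (Cre_Pos), and cluster 8 had 9.4 and 4.0 CPM from 7 and 7 UMIs. Cluster 39, where 7 of 8 general capillary markers also passed, had 6.85 and 10.4 CPM from 7 and 36 UMIs.

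Lgr6 reached 488 CPM (462 to 516) in secretory-like cells, which held 1257 of its 1456 UMIs. Within the class all 1257 were in cluster 27 (105 cells led by Bpifa1 and Muc5b), at 584 CPM, and 0 in cluster 30 (103 cells led by Scgb1a1 and Cyp2f2), where a count of 0 allowed up to 7.16 CPM. Sublibrary levels over the class were 438, 499, 544 and 578 CPM in Cre_Neg and 280, 240, 697 and 417 CPM in Cre_Pos. Of secretory-like cells, 43.1% held an Lgr6 UMI for Cre_Neg and 39.6% for Cre_Pos, and 31.4% and 26.7% did after thinning to 2000 UMIs. Cells below 2000 UMIs were left out of the thinned shares. The median depth of cluster 27 was 19733 UMIs and that of cluster 30 was 3274. Lgr5, a stem cell marker in gut, was highest in mesothelial-like cells at 68.4 CPM (55.3 to 83.8). Lgr4 was broad, with secretory-like (65.7 CPM), lymphatic endothelium-like (64.2 CPM) and neuroendocrine-like cells (52.9 CPM) not apart beyond their intervals.

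Secreted modulators were highest in mesenchymal or mesothelial classes, apart from Wif1. Wif1, which binds Wnt ligands directly, had 1461 of 1530 UMIs in ciliated-like cells, at 65.9 CPM (62.6 to 69.4). It split the 3 ciliated-like clusters: 131 CPM in cluster 0, 37.1 CPM in cluster 5 and 9.85 CPM in cluster 14, with intervals that did not meet. Wnt11 had 135, 139.9 and 126 CPM in the same clusters, with intervals that overlapped between neighbours. Sfrp1, another Wnt-binding protein, was concentrated in adventitial fibroblast-like cells at 137 CPM (122 to 152). Sfrp2 was concentrated in mesothelial-like cells at 234 CPM (209 to 261), with 321 of 346 UMIs. Its sublibrary levels, both pools together, were 402, 91.4, 109 and 269 CPM, a spread wider than the Poisson interval. Dkk3 was high in adventitial fibroblast-like (294 CPM), pericyte-like (251 CPM), mesothelial-like (166 CPM) and alveolar fibroblast-like cells (155 CPM). Dkk2, an inhibitor of Lrp5 and Lrp6, rested on very few cells: 86 UMIs in 3 adventitial fibroblast-like cells, all from the first sublibrary.

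Feedback genes are induced by the pathway and restrain it, which makes them common readouts of its activity. Axin2, the standard target gene, was highest in alveolar fibroblast-like cells at 124 CPM (107 to 142) and pericyte-like cells at 117 CPM (97.2 to 140), which were not apart. AT2-like cells stood lower, at 36.5 (Cre_Neg) and 33.1 CPM (Cre_Pos), and AT1-like cells had 2 Axin2 UMIs in all. Nkd1, an inhibitor that binds Dishevelled, had another order: aerocyte capillary-like cells at 799 CPM (785 to 812), AT2-like cells at 573 CPM (566 to 580), vein-like cells at 546 CPM (516 to 576) and general capillary-like cells at 516 CPM (509 to 523). Ciliated-like cells stood at 2.37 (Cre_Neg) and 3.88 CPM (Cre_Pos). A Nkd1 UMI was seen in 88.6% and 88.1% of AT2-like cells and in 3.27% and 2.38% of ciliated-like cells, which were the deeper class.

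Within the alveolar epithelium Nkd1 differed between clusters. The 4 large AT2-like clusters stood between 530 and 653 CPM, cluster 9 (47 cells with 7 proliferation markers) at 379 CPM (340 to 421), cluster 35 (303 cells led by Ndnf and Ano1, with 8 of 10 markers of the Krt8 transitional list) at 147 CPM (135 to 159), and AT1-like cells at 4.28 CPM (0.882 to 12.5) from 3 UMIs. The median depth of cluster 35 was 12014 UMIs. Axin2 in cluster 35 stood at 23.1 (Cre_Neg) and 13.9 CPM (Cre_Pos), beside 28.7 to 38.4 CPM (Cre_Neg) and 28.95 to 38.5 CPM (Cre_Pos) in the 4 large clusters.

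Znrf3 and Rnf43, the ubiquitin ligases that clear Frizzled, differed in where they were high. Znrf3 was highest in alveolar fibroblast-like cells at 462 CPM (430 to 497) and had UMIs in 24 of 25 classes. Rnf43 was highest in mast cell or basophil-like cells at 294 CPM (244 to 352), then in cluster 6 at 135 CPM (127 to 144), AT2-like cells at 132 CPM (129 to 135) and AT1-like cells at 113 CPM (89.1 to 140). The promoters of Axin2 and Nkd1 are printed because the order of the classes differed between these 2 readouts. Neither window held CTTTGA on either strand, so neither has capitals, and guanine and cytosine made up 69.2% and 58.4% of them.
Axin2 (chr11:108920099-108920348, plus strand): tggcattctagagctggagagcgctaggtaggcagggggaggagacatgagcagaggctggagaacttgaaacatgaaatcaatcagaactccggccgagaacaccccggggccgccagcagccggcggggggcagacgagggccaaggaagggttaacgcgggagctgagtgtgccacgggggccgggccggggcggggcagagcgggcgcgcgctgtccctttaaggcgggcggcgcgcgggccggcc
Nkd1 (chr8:88527383-88527632, plus strand): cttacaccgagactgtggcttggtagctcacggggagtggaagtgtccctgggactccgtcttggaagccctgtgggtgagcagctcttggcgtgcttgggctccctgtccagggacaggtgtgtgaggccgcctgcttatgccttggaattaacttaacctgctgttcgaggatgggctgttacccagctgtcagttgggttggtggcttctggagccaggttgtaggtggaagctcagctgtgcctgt

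**Figure D3:**
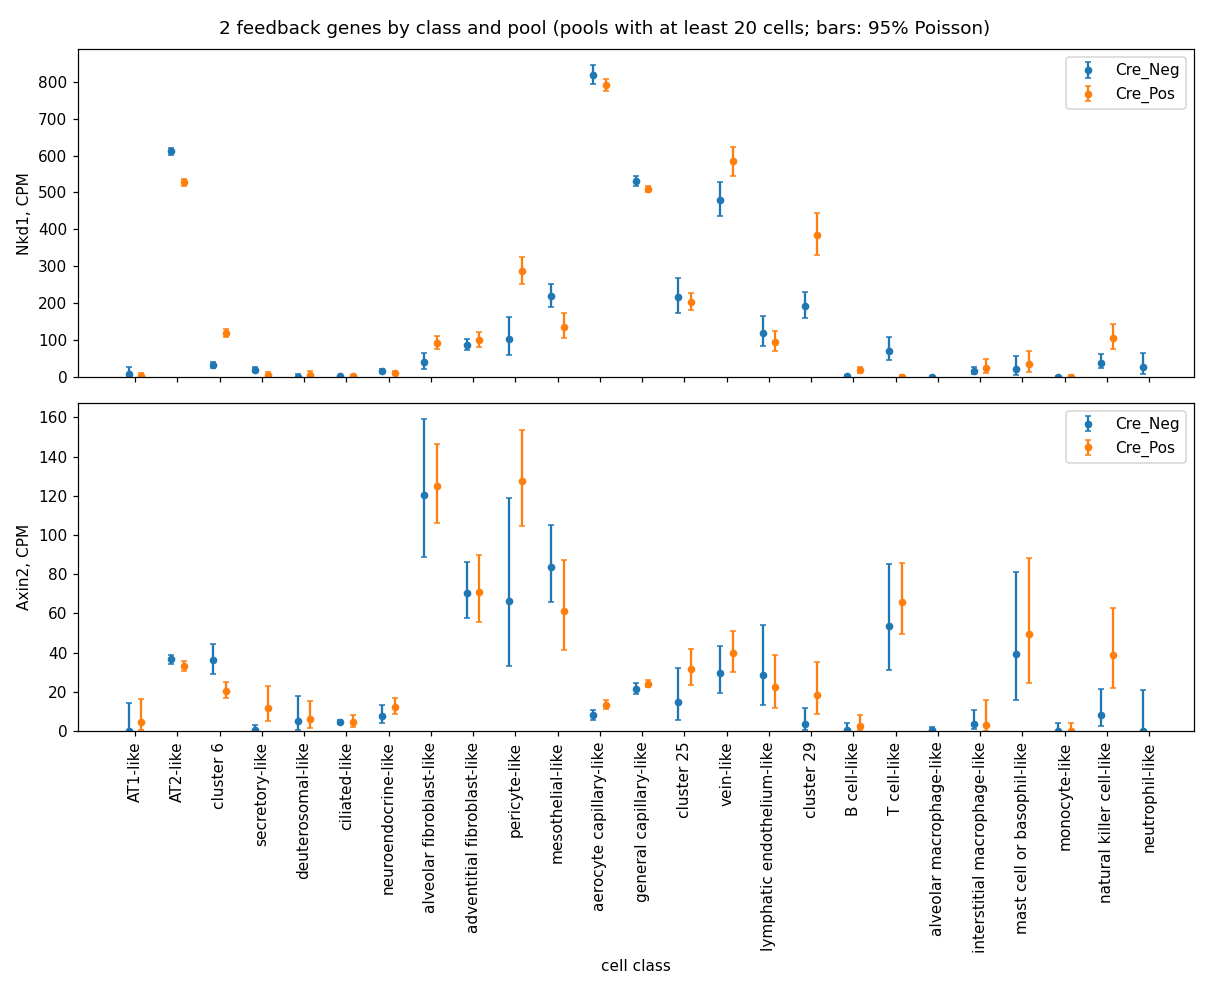
Nkd1 (top) and Axin2 (bottom) in CPM by cell class and pool, with 95% Poisson intervals, for pools with at least 20 cells of a class. Nkd1 peaks in aerocyte capillary-like cells (819 CPM in Cre_Neg, 791 CPM in Cre_Pos) and Axin2 in alveolar fibroblast-like and pericyte-like cells.

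Of the nuclear effectors, Lef1 and Tcf7 were concentrated in T cell-like cells. Lef1 and Tcf7, factors of T cell development, stood at 2688 CPM (2594 to 2784) and 1032 CPM (974 to 1092) in T cell-like cells. Lef1 came next in pericyte-like cells at 445 CPM (405 to 488) and Tcf7 in natural killer cell-like cells at 120 CPM (98.1 to 145). In that class of 115 cells 9 of 9 natural killer markers passed, but so did 7 of 11 T cell and 7 proliferation markers, and its 10 leading genes held Mki67 and none of the natural killer markers. Tcf7l2 was highest in alveolar macrophage-like cells at 2630 CPM (2570 to 2691), a class with 201 Cre_Neg and 3 Cre_Pos cells. In monocyte-like cells it separated cluster 22 at 996 CPM (929 to 1066) from cluster 33 at 71.2 CPM (56.2 to 89.0). Tcf7l1, mostly a repressor, was highest in cluster 6 at 514 CPM (497 to 531), then in adventitial fibroblast-like cells at 433 CPM (407 to 460), and AT2-like cells stood at 397 CPM (392 to 403).

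Between pools, 10 classes had at least 100 cells in each, and a gene was called in a class where it had at least 50 UMIs and differed at least 2-fold. Over these classes 135 pairs of member and class could be compared and 8 were called, 5 of them with the same direction in each of the 4 sublibraries. None was called in AT2-like (0 of 23, with 0.984% of all genes called), aerocyte capillary-like (0 of 16, 1.12%), general capillary-like (0 of 17, 1.01%), neuroendocrine-like (0 of 16, 2.27%), vein-like (0 of 9, 1.72%) or monocyte-like cells (0 of 3, 2.35%). In ciliated-like cells 1 of 22 members was called (4.23% of all genes), in B cell-like cells 1 of 3 (4.42%), in cluster 29 2 of 7 (15.6%) and in cluster 6 4 of 19 (5.86%). Calls that also kept 1 direction over the sublibraries numbered 1, 1, 1 and 2 in these classes, beside 2.35%, 3.11%, 10.3% and 4.43% of all genes. The median log2 ratio of members (Cre_Pos over Cre_Neg) was 0.00 in AT2-like, 0.16 in ciliated-like and -0.28 in cluster 6 cells, beside 0.02, 0.03 and 0.03 for all genes there.

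In AT2-like cells the highest ratios were those of Wnt7a (0.87, 0.28 to 1.47) and Wnt9a (0.82, 0.25 to 1.39), and the lowest those of Wnt3a (-0.61, -1.02 to -0.20) and Wnt5b (-0.51, -1.29 to 0.24). Nkd1 in these cells read 598, 600, 612 and 642 CPM in the Cre_Neg sublibraries and 559, 520, 491 and 546 CPM in the Cre_Pos ones. The 2 sets did not overlap, and the ratio was -0.21 (-0.25 to -0.18), well under the 2-fold size. By cluster it stood at 706 (Cre_Neg) and 596 CPM (Cre_Pos) in cluster 1, 640.1 and 553 CPM in cluster 2, 672 and 593 CPM in cluster 3, 535 and 526 CPM in cluster 4 and, from low levels, 112 and 170 CPM in cluster 35. Cluster 35 held 135 of 2077 Cre_Neg and 168 of 1475 Cre_Pos cells, and the 10 Krt8 transitional markers summed to 477 and 612 CPM over the class, 10 of 10 higher in Cre_Pos. Axin2 in AT2-like cells had a ratio of -0.14 (-0.29 to 0.00).

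Ciliated-like cells numbered 1225 in Cre_Neg and 126 in Cre_Pos. Lgr4 was the member called, with 164 UMIs (8.26 CPM) in Cre_Neg and 9 UMIs (3.88 CPM) in Cre_Pos, which gave a log2 ratio of -1.09 (-2.24 to -0.13). Within the class Lgr4 stood at 4.00 and 4.02 CPM in cluster 0, at 8.30 and 1.74 CPM in cluster 5 (2 UMIs in Cre_Pos) and at 20.3 and 17.3 CPM in cluster 14. In Cre_Neg 451 of 1225 ciliated-like cells were in cluster 0, and in Cre_Pos 60 of 126. Among Y-only cells alone Lgr4 was at 15 and 9 UMIs, with its log2 ratio at 0.00 (-1.37 to 1.29). The next lowest was Wnt5a (-0.68, -1.05 to -0.33), with 55.5, 48.2, 47.7 and 41.8 CPM in Cre_Neg and 37.6, 41.4, 19.4 and 24.1 CPM in Cre_Pos. No Cre_Pos value reached the lowest Cre_Neg one. The highest were Nkd1 (0.71, -0.50 to 1.76), from 47 and 9 UMIs, and Wif1 (0.61, 0.40 to 0.82), whose sublibraries did not overlap and which was higher in Cre_Pos within cluster 0 (166 against 126 CPM) and cluster 5 (47.0 against 36.1 CPM). Fzd5, level with Wif1 at 0.61, rested on 163 and 29 UMIs. Of ciliated-like cells with a sex call, 16.8% (Cre_Neg) and 95.3% (Cre_Pos) were Y-only. The part of sex in the Wnt5a, Nkd1, Wif1 and Fzd5 ratios was not tested.

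Cluster 6, whose cells express both secretory and AT2 genes, held the calls of Nkd1 and Wnt11. Nkd1 had 79 UMIs (33.2 CPM) in Cre_Neg and 543 UMIs (120 CPM) in Cre_Pos, which gave a log2 ratio of 1.86 (1.51 to 2.21). Its sublibrary levels were 41.2, 42.3, 3.86 and 40.1 CPM in Cre_Neg and 126, 88.6, 152 and 119 CPM in Cre_Pos, and the sets did not overlap. The ratio was 1.82 (1.46 to 2.21) in Xist-only and 0.29 (-0.88 to 1.69) in Y-only cells, the latter from 7 and 41 UMIs. Wnt11 was lower in Cre_Pos, at 16.4 and 4.42 CPM (39 and 20 UMIs; log2 ratio -1.89, -2.74 to -1.08). Lgr5 (-2.79) and Wnt5a (-1.46) were past 2-fold but did not keep 1 direction over the sublibraries. Lgr5 was at -1.88 without the first sublibrary, -3.40 without the second and -3.39 without the third, and Wnt5a at -0.85 without the fourth. The second-highest ratio was Lgr4 at 0.62 (-0.07 to 1.35). Axin2 was lower in Cre_Pos in each sublibrary, at 36.1 and 20.6 CPM (-0.81, -1.25 to -0.37).

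The make-up of cluster 6 moved with these values. The summed level of the 11 AT2 markers was 7220 CPM in Cre_Neg (5235 to 8883 over sublibraries) and 12213 CPM in Cre_Pos (11482 to 12579), with 10 of 11 higher in Cre_Pos. That of the 11 secretory markers was 21981 CPM (17487 to 25361) and 11165 CPM (8908 to 13210), with 3 of 11 higher in Cre_Pos. All markers of both lists had UMIs in both pools. Their part in the Nkd1, Wnt11 and Axin2 ratios was not tested.

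The remaining calls lay in B cell-like cells and in cluster 29, which had leukocyte genes and 8 of 8 general capillary markers. Lef1 in B cell-like cells had 38 UMIs (27.5 CPM) in Cre_Neg and 63 UMIs (58.0 CPM) in Cre_Pos, which gave a log2 ratio of 1.08 (0.47 to 1.70), with sublibrary levels of 43.7, 27.7, 33.5 and 0 CPM and of 54.0, 41.5, 72.3 and 76.0 CPM. The sets overlapped. The other 2 members measured there were Znrf3 (0.72) and Lrp6 (-0.01). Among Xist-only cells the ratio was 0.05 (-0.68 to 0.79). The 11 T cell markers summed to 13.8 (Cre_Neg) and 11.1 CPM (Cre_Pos), with Cd3e, Cd3d, Trac, Trbc2, Cd4, Cd8a and Bcl11b at 0 in both. The 9 blood endothelium markers summed to 945 (765 to 1185 over sublibraries; Cldn5, Tie1 and Emcn at 0) and 1365 CPM (717 to 2516), 9 of 9 higher in Cre_Pos, and the 8 general capillary markers to 24.6 (20.1 to 27.7; Aplnr at 0) and 228 CPM (41.5 to 632), 7 of 8 higher. The class joined cluster 7 (67 Cre_Neg and 8 Cre_Pos cells) and cluster 15 (155 and 176 cells). The part of these markers and clusters in the Lef1 ratio was not tested. In cluster 29, Lrp6 had 97.1 (Cre_Neg) and 235 CPM (Cre_Pos) (log2 ratio 1.28, 0.81 to 1.75), and Tcf7l2 36.2 and 88.0 CPM without 1 direction over the sublibraries (log2 ratio 2.40 without the first sublibrary). The lowest was Znrf3 (-0.87, -1.27 to -0.48). There the 9 blood endothelium markers summed to 8057 (Cre_Neg) and 15449 CPM (Cre_Pos), and the 8 plasma cell markers to 2901 and 1185 CPM, with Iglv1 at 0 in Cre_Pos. Their part in the cluster 29 ratios was not tested.

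Over the whole aerocyte capillary-like, general capillary-like and vein-like classes every compared member stayed under 2-fold. Within cluster 21 alone the Rspo3 levels, given above, were past 2-fold. Rspo3 was the highest member in aerocyte capillary-like cells at 0.90 (0.47 to 1.34), with 16.5, 9.26, 10.2 and 9.46 CPM in Cre_Neg and 24.7, 15.2, 19.9 and 25.2 CPM in Cre_Pos, followed by Axin2 (0.75, 0.24 to 1.29). The lowest were Fzd3 (-0.53) and Lrp5 (-0.19). In general capillary-like cells Fzd1 (0.55) and Fzd5 (0.40) were highest and Wnt5b (-0.65) and Lgr4 (-0.24) lowest. In vein-like cells Lrp6 (0.42) and Axin2 (0.42) led, and Nkd1 stood at 0.28. Neuroendocrine-like cells ranged from Wnt5b (-0.44) and Nkd1 (-0.43) to Axin2 (0.67) and Rspo3 (0.39), and Wnt3 itself was at 0.07 (-0.24 to 0.38). Monocyte-like cells ranged from Lrp5 (-0.28) to Tcf7l2 (0.43).

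**Figure D4:**
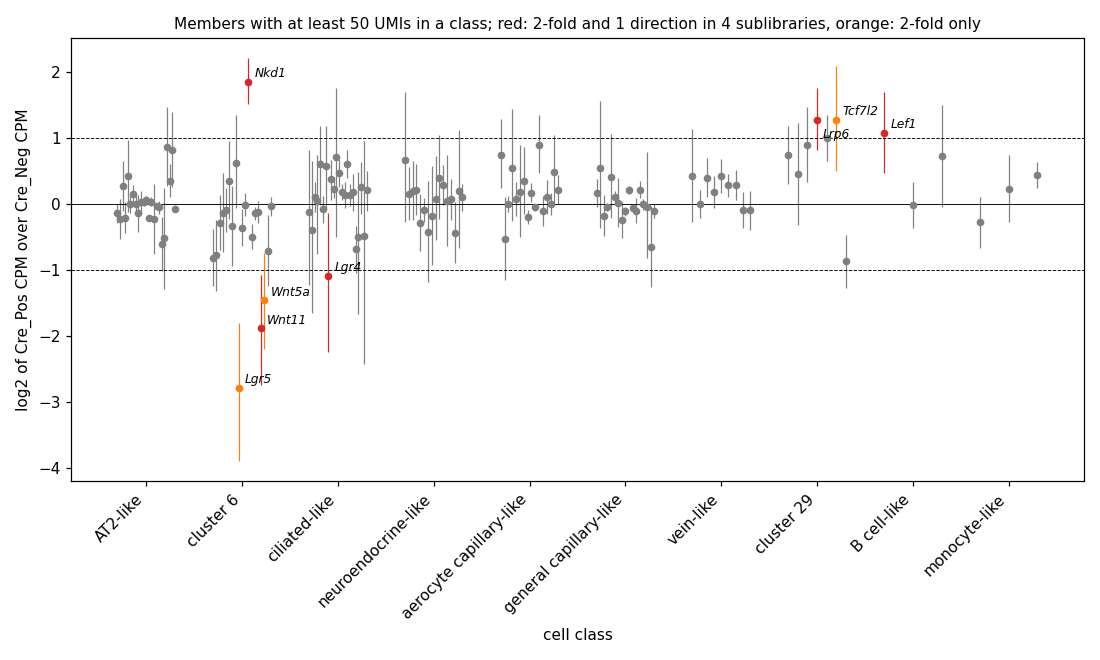
Log2 ratio of Cre_Pos over Cre_Neg CPM for each member with at least 50 UMIs in a class, by class, with 95% intervals; dashed lines mark 2-fold. Red points passed 2-fold in the same direction in each of the 4 sublibraries (Nkd1 and Wnt11 in cluster 6, Lgr4, Lrp6 and Lef1), and orange points passed 2-fold only. The AT2-like, aerocyte capillary-like, general capillary-like and vein-like classes have neither.

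The wider pathway list of 76 genes (receptor partners, destruction complex, secretion, polarity and other genes) gave 343 pairs with 16 called, 10 of them in 1 direction over the sublibraries. Over all genes, 2685 of 86665 pairs were called, 1784 of them in 1 direction. None of the list was called in AT2-like (0 of 46, with 0.984% of all genes called), aerocyte capillary-like (0 of 41, 1.12%), general capillary-like (0 of 43, 1.01%) or vein-like cells (0 of 27, 1.72%). In neuroendocrine-like cells Ror1, a Wnt5a receptor, had 64.3 (Cre_Neg) and 183 CPM (Cre_Pos) (110 and 577 UMIs; log2 ratio 1.51, 1.21 to 1.82), but the Ror1 ratio was -0.66 among Y-only cells (35 and 11 UMIs). The Dishevelled gene Dvl2 had 18.7 and 6.35 CPM there (-1.56, -2.44 to -0.71). In cluster 6 Prickle2, a polarity gene, had 47.9 and 100.4 CPM (1.07) and Tspan12, a partner of Fzd4, 85.7 and 38.9 CPM (-1.14). The Tspan12 ratio was 0.76 among Y-only cells (8 and 65 UMIs), and that of Prickle2 was 0.07 with the mean of levels per cell and 0.13 among Y-only cells. The shift of AT2 and secretory markers in cluster 6 lies beside these values too, and its part was not tested. In B cell-like cells Trabd2b, a metalloprotease that cleaves Wnts, had 60 and 2 UMIs (-4.56, -7.64 to -2.64). The clusters of that class, unevenly shared between the pools, lie beside this value, and their part was not tested. In cluster 29, 5 of 21 genes of the list were called in 1 direction, beside 10.3% of all genes. There Prickle1 (1.34), Bcl9l (1.13), Ctnnb1 (1.13) and Ryk (1.12) were higher and Tle3 (-1.98) lower in Cre_Pos. With the mean of levels per cell Bcl9l turned to -0.62 and Prickle1 was 0.56, and among Y-only cells Ctnnb1 turned to -0.09 (9 and 2 UMIs). Tle3 was -0.85 without the mitochondrial and doublet filters.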

How the data were processed

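The matrix of UMI counts per barcode and gene was deposited as raw counts, and the genome build is GRCm39 per the submitters' processing notes, while the deposited gene table names mm10. No source used here names the aligner. No coordinates were taken from the files. Pools were read from the barcoding wells. Barcodes with 500 genes or more and no more than 15% mitochondrial UMIs were kept, and 185 called doublets (1.12%) were removed. Clusters (scanpy 1.11.5, leidenalg 0.10.2) were computed without the 43 genes and a wider list of 76. Resolution 2 replaced resolution 1, the first choice, after the latter was seen to merge alveolar with adventitial fibroblasts. Classes were named where at least 3 markers passed (at least 4-fold over the median cluster and UMIs in 10% of cells), a rule set after seeing the data. The members and lists were chosen with earlier results of these data known. Counts were summed by class and pool into CPM, with exact 95% Poisson, Clopper-Pearson and conditional binomial intervals (scipy 1.17.1). All members are accounted for, members with at least 200 UMIs are described in full, and pool values are named where they differed at least 2-fold with 50 UMIs and 1 direction in the 4 sublibraries, together with the 2 highest and 2 lowest members of a class. The pool ratios were tried on simulated Poisson counts for AT2-like cells (13146 genes), with planted changes larger than the 2-fold rule. There 99.5% of changed and 0.0927% of unchanged genes were called. The simulation held counting error only, so it cannot show how differences between mice, sex or cell make-up affect the calls. TMM factors came from edgeR 4.0.16. A count of 0 was taken to allow 3 counts. Of the columns with per-sample values, 1 (reads per barcode) was not used. Sublibrary depths ranged from a median of 7084 to 10368 UMIs per cell.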

Additional observations from a re-analysis of the deposited data

Results flagged for a closer look

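Each set of 4 sublibraries was searched for a value far from the other 3, a rule by which chance picks about 1 in 20 sets. It picked 4 of the 62 sets looked at. Fzd7 in pericyte-like cells stood at 69.2 CPM in the fourth sublibrary, against 39.2, 38.4 and 37.6 CPM in the others. Dkk2 in adventitial fibroblast-like cells stood at 190.3 CPM in the first sublibrary and at 0 in the others. The log2 ratio of Lrp6 in cluster 29 was 2.60 in the second sublibrary, against 0.67, 0.66 and 0.66. That of Nkd1 in cluster 6 was 5.30 in the third, from 2 and 156 UMIs, against 1.62, 1.07 and 1.57.

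A pair of feedback genes had opposite directions in different classes in each of the 4 sublibraries, and these differences were not tested. Axin2 had a log2 ratio of 0.75 in aerocyte capillary-like and 0.67 in neuroendocrine-like cells, but -0.81 in cluster 6. Nkd1 had a log2 ratio of 1.86 in cluster 6 and 1.00 in cluster 29, but -0.21 in AT2-like cells.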

How the results depend on the processing

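The class with the highest level stayed the same for 28 to 41 of the 41 measured members over the alternatives (37 to 39 when 1 sublibrary was left out), 39 with the Wnt genes in the clustering, 28 at resolution 1 and 28 at resolution 1 with those genes, an alternative chosen after seeing the data, in which the AT1-like cells joined the AT2-like class. The 14 concentrated members of 41 became 9 of 34 measured in Y-only cells, beside 12.8% of all genes. They became 12 of 41 with the mean of levels per cell (13.7% of all genes) and 14 to 16 of 41 without 1 sublibrary (13.4% or 13.5%). Without a UMI minimum they were 15 of 43, beside 38.5% of all genes, so the contrast with all genes depended on the minimum. The 8 pairs of member and class called between pools became 5 with the mean of levels per cell, 2 in Y-only cells, 23 with a minimum of 20 UMIs and 54 without a minimum. They ran from 3 to 11 without 1 sublibrary, with 5 without the second and 3 without the fourth. The 16 pairs of the wider list became 33 with the minimum of 20 UMIs, 64 without one, 10 when the Wnt genes entered the clustering (at resolution 2 and at resolution 1) and 9 in Y-only cells. They ran from 7 to 17 without 1 sublibrary, with 10 without the first and 7 without the second. Neither the pairs measured nor the share of all genes called was computed for these alternatives. The rise of both lists at lower minimums therefore has no background beside it. Shares of ciliated-like cells with a Wnt11 UMI fell from 73.4% to 22.5% (2000 UMIs) and 11.5% (1000 UMIs) in Cre_Neg, and from 74.6% to 23.3% and 16.9% in Cre_Pos. Those of secretory-like cells with an Lgr6 UMI went from 43.1% to 31.4% and 20.9% in Cre_Neg, and in Cre_Pos from 39.6% to 14.6% at 1000 UMIs. Thinning removes UMIs by construction, and cells below the thinned depth were left out.

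Of 1987 alternatives to 151 single-gene values, 1833 stayed within the spread, 144 moved and 10 changed sign. In Y-only cells the log2 ratio turned to 0 for Lgr4 and 0.52 for Ror1 in ciliated-like cells, -0.09 for Ctnnb1 in cluster 29, 0.32 for Wnt5a, 0.76 for Tspan12 and -1.26 for Myc in cluster 6, and -0.66 for Ror1 in neuroendocrine-like cells. Rspo4 in neuroendocrine-like cells read 0.12 in Xist-only cells, Ror1 in ciliated-like cells 1.4 without the mitochondrial and doublet filters, and Bcl9l in cluster 29 -0.62 with the mean of levels per cell. The cause was not tested. TMM factors moved 0 of 151 values. Single-gene alternatives with 0 UMIs in a pool were left out of these counts. In the pool ratios themselves a 0 took the floor of 3 counts. No paired analysis was possible because each genotype was 1 pool and the 4 sublibraries are aliquots of both pools. With 1 pool per genotype, sex, litter and handling of a pool cannot be told apart from genotype, and rare classes limit what a count of 0 shows.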
